A study of Mus musculus with 12 samples.

Results

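The genes described here encode the protein subunits of oxidative phosphorylation, split between the nuclear and the mitochondrial genome. They were chosen by symbol: names beginning Nduf with a subunit letter and number (complex I), Sdha to Sdhd (complex II), Uqcr (complex III), Cox followed by 4 to 8 (complex IV) and Atp5 (complex V), together with the mitochondrially encoded mt-Nd, mt-Cytb, mt-Co and mt-Atp genes. Names holding -ps were left out. The rule took 101 of the 55367 genes counted, 88 nuclear and 13 mitochondrial, and 87 of them (75 nuclear, 12 mitochondrial) had enough counts to be tested.

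Whole-blood RNA came from CB17-SCID mice, which lack mature T and B cells, and all of which carried tumours grown from HT1376, an established line of human bladder carcinoma. Treated mice received CPI0209 by mouth at 35 mpk (mg per kg) once a day for 11 days. Blood was taken 1, 6 or 24 h after the last dose, and a vehicle group was dosed for the same 11 days. Each of the 4 groups had 3 libraries. CPI0209 inhibits EZH2 and EZH1, the histone H3 lysine methyltransferases of Polycomb repressive complex 2. Neither the bleeding time of the vehicle mice nor the age of any mouse is stated in the sources used here. Separate titles are the sole evidence that replicates were separate animals, so p-values measure the spread between these libraries. Total counts ran from 6496573 to 9978215 per library.

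In oxidative phosphorylation, electrons enter the inner mitochondrial membrane through complex I (from NADH) or complex II (from succinate), pass through complex III to cytochrome c and reach oxygen at complex IV. The protons pumped on the way drive complex V, the ATP synthase. Mitochondrial DNA encodes a small set of hydrophobic core subunits of complexes I, III, IV and V, none of complex II, and the nucleus encodes the rest. In blood, white cells, platelets and reticulocytes hold mitochondria, and reticulocytes shed theirs, together with their RNA, as they mature into red cells.

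Markers of circulating cells set the context for the levels. All 18 reticulocyte markers were detected in amounts that allowed a test, and their summed level was 62590 to 70980 CPM (counts scaled to library size by TMM, a trimmed mean of ratios) in vehicle, 64820 to 77170 at 1 h, 109700 to 124000 at 6 h and 32750 to 97610 at 24 h. At 6 h, 9 of these 18 genes were called higher than in vehicle and none lower, with a median log2 fold change of 1.07. The summed level of 10 platelet markers was 2126 to 3038 CPM in vehicle and 2794 to 3830 at 6 h, that of 12 neutrophil markers 5268 to 10350 and 7108 to 12520, and that of 10 monocyte markers 5724 to 8039 and 4698 to 5366. T cell markers summed to at most 6.25 CPM in any library, and 1 of 7 could be tested. B cell markers summed to 24.2 to 57.6 CPM over the libraries, and 1 of 6 could be tested. The TMM factor of each 6 h library was between 0.766 and 0.812, beside 1.03 to 1.12 for vehicle. In whole blood a change in the number of cells of a type and a change in RNA per cell cannot be told apart.

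The mitochondrial genes needed a check before their values could be read. The mouse genome carries nuclear copies of mitochondrial DNA, and 5 mt- members have a near-identical annotated copy within a short stretch of chromosome 1 on the minus strand (GRCm38, GENCODE M21). The copies are Gm28661 for mt-Co2, Gm28437 for mt-Co3, Gm10925 for mt-Atp6, Gm28438 for mt-Nd3 and Gm10222 for mt-Nd4l. Each copy matched its member base for base over the copy's whole length, apart from 1 mismatch in Gm28438. The copies are annotated 1 base (Gm28437) or 3 bases shorter at the end, the sole difference between most of these annotated pairs. The last bases of 3 members are shown because member and copy are annotated differently there, with the bases that the copy lacks in capitals.
mt-Co2: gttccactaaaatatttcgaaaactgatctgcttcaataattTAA
mt-Co3: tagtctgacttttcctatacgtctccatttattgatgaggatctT
mt-Atp6: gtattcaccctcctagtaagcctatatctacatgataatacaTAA
In mt-Co2 and mt-Atp6 these capitals are the stop codon. Gm10222 is shorter than mt-Nd4l by the same 3 bases.

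Most counts of these pairs stood on the nuclear copy's row. The copy held 97.9% of the pair's counts for mt-Co2, 92.7% for mt-Co3, 83.0% for mt-Atp6 and 98.9% for mt-Nd3, but 4.83% for mt-Nd4l. How the counting shared reads between member and copy was not tested. The row of mt-Nd3 was listed at 0 in 11 of 12 libraries, and its total was 94 counts. The nonzero counts of mt-Co3 were whole multiples of 534.5 within 1.08% in 11 libraries, and those of mt-Co2 whole multiples of 150.9 within 0.596% in 10. The rows of mt-Co2, mt-Co3, mt-Atp6 and mt-Nd3 therefore do not give those transcripts' levels alone. Member and copy were summed below where an mt- level is given "with its copy", a choice made after seeing the data. Reads from mitochondrial and nuclear copies cannot be told apart in that sum.

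**Figure D1:**
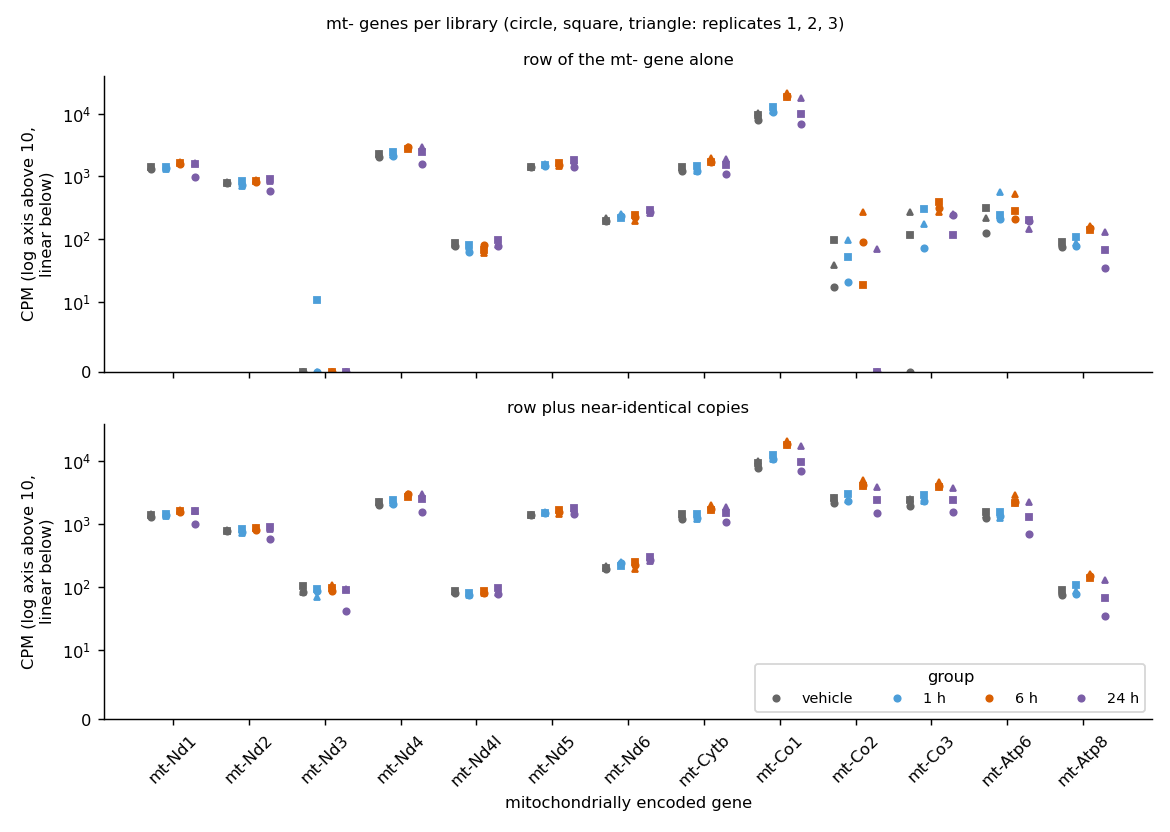
CPM of each mitochondrially encoded gene in each of the 12 libraries, for the gene's own row (upper panel) and for the row plus its near-identical copies (lower panel), on an axis that is logarithmic above 10. The rows of mt-Nd3, mt-Co2 and mt-Co3 alone include libraries at 0, and with the copies added no library is at 0.

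Summed over each genome's members, oxidative phosphorylation transcripts took a larger share of counts at 6 h than in vehicle. Nuclear members took 0.142%, 0.161% and 0.153% of counts in vehicle, 0.160%, 0.171% and 0.160% at 1 h, 0.166%, 0.174% and 0.186% at 6 h, then 0.1502%, 0.164% and 0.168% at 24 h. Each 6 h library exceeded all vehicle libraries, while those of 24 h overlapped with both. With their copies, the mt- members took 2.29%, 2.61% and 2.52% in vehicle, 2.63%, 2.84% and 2.65% at 1 h, 2.94%, 3.03% and 3.38% at 6 h, then 2.21%, 3.01% and 3.19% at 24 h. Again each 6 h library was above every vehicle library. The genes of this genome did not all move alike: on its own row mt-Co1 took 0.888% to 1.05% in vehicle and 1.45% to 1.65% at 6 h, whereas the 7 mt-Nd genes, without copies, took 0.636% to 0.671% in vehicle and 0.551% to 0.580% at 6 h. With copies, the counts of mt- members outnumbered those of nuclear members 16.2- to 16.4-fold in vehicle, 16.5- to 16.6-fold at 1 h and 17.4- to 18.1-fold at 6 h. At 24 h these ratios were 14.7, 18.35 and 18.9, a range that holds those of all other libraries. On the mt- rows alone the ratios were 11.99 to 12.34 in vehicle, 12.52 to 13.03 at 1 h, 12.97 to 13.21 at 6 h and 11.81 to 14.09 at 24 h.

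On TMM-scaled sizes the summed nuclear level was 1267, 1476 and 1494 CPM in vehicle, 1464, 1715 and 1472 at 1 h, 2174, 2145 and 2390 at 6 h, then 1136, 1358 and 1969 at 24 h. The third 24 h library thus stood near the 6 h level, and the first below every vehicle library. The reticulocyte markers had the same order among the 24 h libraries, at 32750, 45640 and 97610 CPM, and the part of these cells in the members' levels was not tested.

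**Figure D2:**
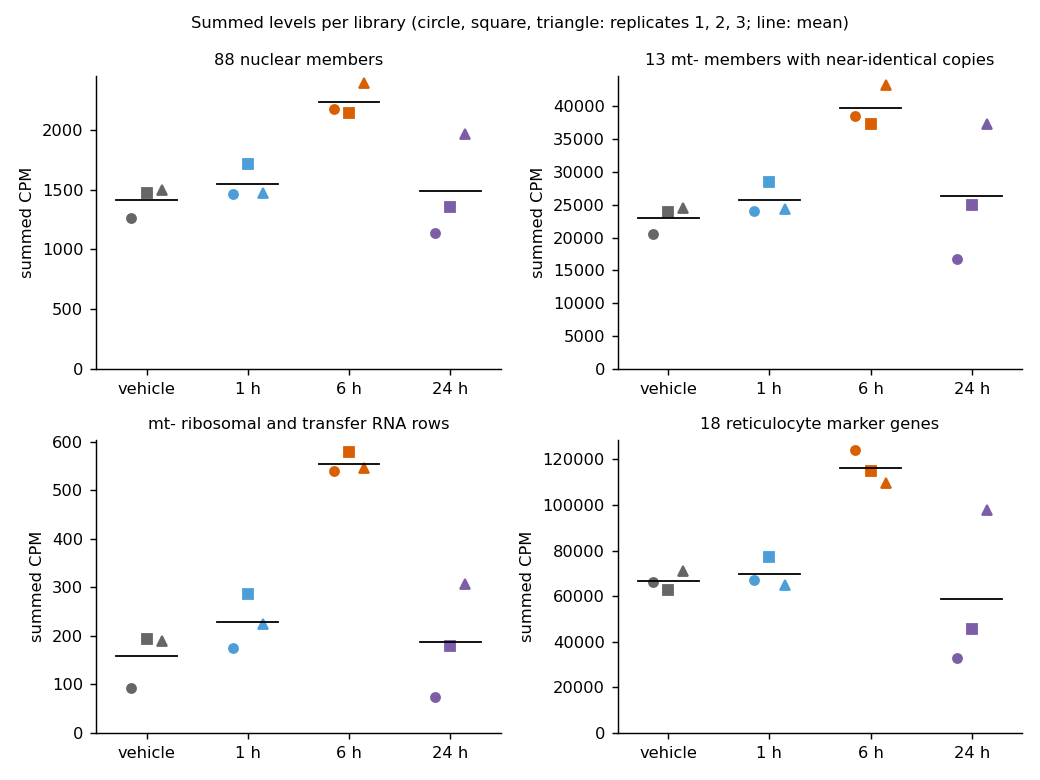
Summed CPM in each library for the 88 nuclear members, the 13 mt- members with their copies, the mitochondrial ribosomal and transfer RNA rows and 18 reticulocyte markers, with the mean of 3 libraries as a line. In all 4 panels the 6 h libraries lie above the vehicle libraries, and among the widely spread 24 h libraries replicate 3 is the highest.

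Within the nuclear set, levels per kilobase of the longest coding transcript spanned 2 orders of size. In vehicle the tested nuclear members had a median of 9.85 CPM per kb and ran from 1.22 to 128.2. Cox8a, a small complex IV subunit, was highest at 128.2 CPM per kb and Atp5b, the catalytic beta subunit of ATP synthase, next at 120.6, with overlapping libraries. Atp5l (72.5), Atp5e (67.5), Atp5h (66.9) and Cox7a2l (63.8 CPM per kb) followed. The highest mitochondrial level was that of mt-Co1, the catalytic subunit of complex IV, at 5990 CPM per kb. With their copies, mt-Co2 stood at 3605, mt-Co3 at 2940 and mt-Atp6 at 2050 CPM per kb, and mt-Nd3 was lowest at 259.9.

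The comparison of 6 h with vehicle asked which of these genes differed in blood drawn 6 h after the last dose. With edgeR's quasi-likelihood test and Benjamini-Hochberg adjustment over 13384 genes, 7 of 75 nuclear members were called higher and 0 lower at an adjusted p under 0.05. Over all genes 4.06% were called higher and 0.785% lower. The called members were Uqcrc2, Uqcrh, Cox6b2, Cox7a2, Ndufb11, Atp5h and Atp5l, from complexes I, III, IV and V. In all, 56 of the 75 had a positive log2 fold change, and the median was 0.33, beside -0.04 over all genes. With library totals in place of TMM the median of all genes was -0.50 and that of the nuclear members -0.11. The sign of the nuclear median thus depends on the scaling. A change of scaling shifts all genes nearly alike, so it cannot test the nuclear members' place above the median of all genes. None of the 12 tested mt- members was called, 2 had an unadjusted p under 0.05, and DESeq2 and limma-voom each called 1 of them, mt-Co1, higher. With copies added, edgeR gave 5 of 13 mt- members an unadjusted p under 0.05 and called none. Over all genes DESeq2 called 6.57% higher and 2.1% lower, and limma-voom 4.39% and 0.59%.

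**Figure D3:**
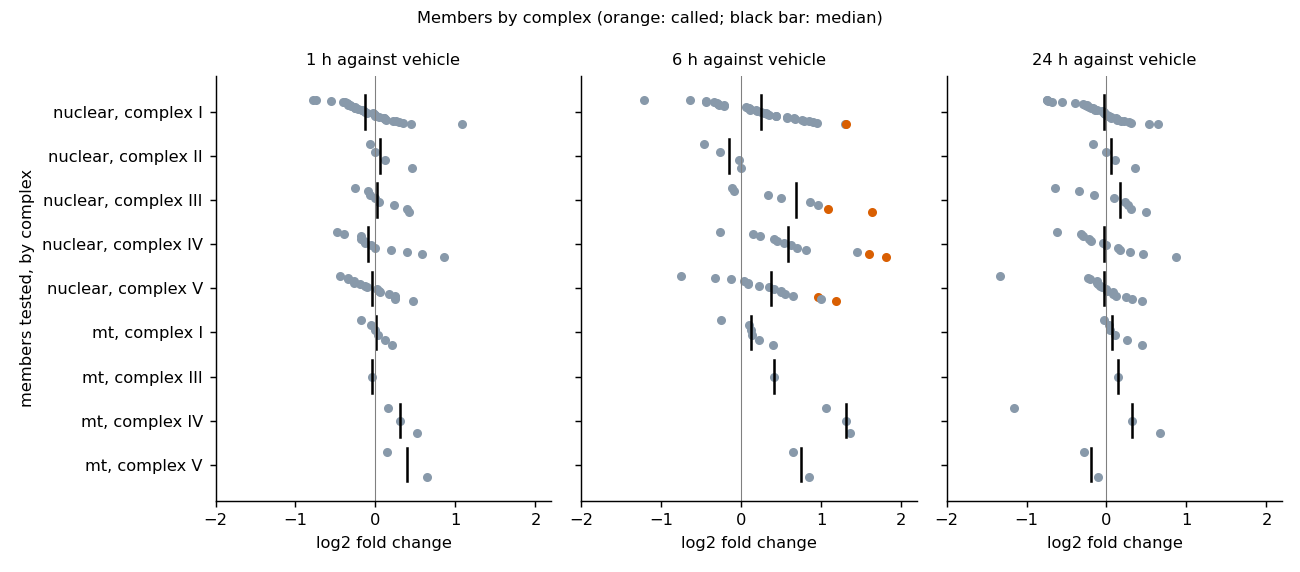
Log2 fold change (TMM-scaled edgeR fit) of every tested member at 1, 6 and 24 h against vehicle, by genome and complex, with called members in orange and a black bar at each median. At 6 h the medians of nuclear complexes III and IV are 0.68 and 0.58 and that of complex II is -0.15. At 1 and 24 h no member is called. The mt- points are the genes' own rows without copies, and those of mt-Co2, mt-Co3 and mt-Atp6 do not give those transcripts' levels alone.

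Complex III gave the steadiest call. Uqcrc2 is a core subunit of this complex (ENSMUSG00000030884, chromosome 7, 120635176 to 120659524, plus strand). Its level was 20.9, 22.9 and 21.3 CPM in vehicle, 26.1, 32.9 and 28.2 at 1 h, 46.1, 50.5 and 42.2 at 6 h, then 23.2, 29.8 and 39.1 at 24 h. Every treated library was above every vehicle library at each time. At 6 h the log2 fold change was 1.09 (SE 0.20, adjusted p = 0.00532), and the call was kept without any 1 of the 12 libraries. Its partner core subunit Uqcrc1 went from 17.6 ± 1.14 CPM in vehicle to 16.6 ± 0.317 at 6 h (SD, n = 3), with overlapping libraries and a log2 fold change of -0.09 (adjusted p = 0.876).

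Uqcrh, the hinge protein of complex III, lies on chromosome 4 (116066965 to 116075071, minus strand, ENSMUSG00000063882). Its level was 13.2, 17.9 and 21.2 CPM in vehicle, 17.7, 20.5 and 14.0 at 1 h, 55.1, 54.6 and 54.3 at 6 h, then 7.57, 13.4 and 35.8 at 24 h. The 6 h libraries stood together far above all others. The log2 fold change at 6 h was 1.64 (SE 0.40, adjusted p = 0.0299). A processed pseudogene, Gm12854, overlaps it on the opposite strand and held 947 counts, and the sources used here do not say whether counting used strand. Uqcr10, another small subunit, was at 20.9 ± 3.65 CPM in vehicle and 38.2 ± 5.79 at 6 h, where it missed the threshold (log2 fold change 0.87, adjusted p = 0.0528).

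In complex IV the called members were Cox6b2 and Cox7a2. Cox6b2 is the isoform of the Cox6b subunit best known from testis (chromosome 7, 4751792 to 4753094, minus strand, ENSMUSG00000051811). It measured 18.5, 24.9 and 42.2 CPM in vehicle, 43.0, 53.2 and 58.0 at 1 h, 97.2, 83.4 and 121.1 at 6 h, then 23.3, 39.9 and 93.8 at 24 h. All 1 h and 6 h libraries were above the vehicle libraries, and those at 24 h overlapped with them. At 6 h the log2 fold change was 1.82 (SE 0.41, adjusted p = 0.0208), the highest among the nuclear members. Its sister isoform Cox6b1, the one most tissues use, went from 28.0 ± 4.92 CPM to 43.4 ± 6.65 at 6 h without passing (adjusted p = 0.139). In vehicle the 2 isoforms were at like levels, 48.8 and 45.4 CPM per kb, and at 6 h Cox6b2 stood at 171.9 and Cox6b1 at 70.2. Of its annotated neighbours, Fam71e2 had 0 counts and Kmt5c 2129, of which 449 were in vehicle and 413 at 6 h.

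Cox7a2 encodes the widely expressed form of subunit VIIa (chromosome 9, 79755361 to 79759878, minus strand, ENSMUSG00000032330). Its values were 7.79, 19.2 and 16.7 CPM in vehicle, 18.5, 25.9 and 20.8 at 1 h, 37.5, 44.8 and 50.3 at 6 h, then 9.78, 16.9 and 34.1 at 24 h. No 6 h library overlapped with vehicle. The log2 fold change at 6 h was 1.60 (SE 0.39, adjusted p = 0.0294). Cox7a2l, a related protein that joins complexes III and IV into supercomplexes, was at 72.0 ± 5.64 CPM in vehicle and 117.5 ± 13.1 at 6 h, just short of the threshold (log2 fold change 0.71, adjusted p = 0.0532). Cox7b was at 16.0 ± 4.12 CPM and 43.8 ± 6.97 (log2 fold change 1.45, adjusted p = 0.0548).

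The muscle or tissue-restricted isoforms of complex IV were nearly absent. Cox4i2 and Cox7a1 had 2 counts each over all 12 libraries and Cox6a2 had 31, whereas Cox7b2, Cox8b, Cox8c and Cox6c2 had 0. Their common forms Cox4i1, Cox6a1 and Cox8a totalled 1142, 805 and 7252 counts, and none of these 3 was called at 6 h. Ndufa4l2, the hypoxia-linked relative of Ndufa4, also had 0 counts, beside 3360 for Ndufa4. Cox6b2 was thus the single tissue-restricted isoform among the tested members of these families.

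Among complex I subunits Ndufb11 was the called member (chromosome X, 20615326 to 20617619, minus strand, ENSMUSG00000031059). It is an accessory subunit of the membrane arm. Its level was 24.2, 33.9 and 41.5 CPM in vehicle, 41.8, 51.8 and 41.2 at 1 h, 90.8, 65.7 and 90.5 at 6 h, then 20.7, 36.1 and 59.2 at 24 h. The 6 h libraries were above those of every other group. The log2 fold change was 1.31 (SE 0.31, adjusted p = 0.0246). Rbm10, on the opposite strand, overlaps the gene and held 1156 counts against 4726 for Ndufb11. Ndufa1, a further accessory subunit, was at 22.2 ± 2.34 CPM in vehicle and 42.9 ± 5.78 at 6 h without passing (adjusted p = 0.0788).

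The tested Nduf genes were also divided into 7 nuclear core subunits of complex I and all others. Of the 28 others, 22 had a positive log2 fold change at 6 h, and their median was 0.32. These others were taken by symbol alone. They include Ndufb11, which was called. They also include Ndufa4, placed in complex I by its symbol, and Ndufb4c, a row with no annotated coding transcript, neither of which was called. Of the 7 nuclear core subunits, which carry the flavin and iron-sulfur clusters, 3 were positive, and their median was -0.28 (range -0.44 to 0.44). No core subunit was called. The difference between core subunits and the others was not tested. The longest coding transcripts of the 7 core subunits have 983 to 2661 bases, and the parts of role and transcript length were not tested.

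None of the 4 subunits of succinate dehydrogenase, complex II, was called, and whether they differed from the other complexes was not tested. Sdha, which binds the flavin, was at 22.6, 25.9 and 32.7 CPM in vehicle and 21.1, 26.4 and 19.9 at 6 h. Sdhb, the iron-sulfur subunit, was at 23.6 ± 1.75 CPM and 23.6 ± 2.56. The membrane anchor Sdhc measured 12.3, 11.1 and 12.7 CPM in vehicle and 5.67, 10.6 and 9.77 at 6 h, all below vehicle, yet its log2 fold change of -0.46 did not pass (adjusted p = 0.304). Sdhd was at 13.8 ± 0.407 and 13.5 ± 3.86 CPM. The median of the 4 was -0.15.

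In ATP synthase, Atp5h and Atp5l were called. Atp5h, subunit d of the peripheral stalk (chromosome 11, 115415689 to 115419962, minus strand, ENSMUSG00000034566), was at 44.5, 44.2 and 48.1 CPM in vehicle, 43.6, 60.7 and 49.4 at 1 h, 95.9, 88.2 and 83.7 at 6 h, then 32.1, 41.1 and 72.4 at 24 h. The 3 values at 6 h were the highest of the 12. The log2 fold change was 0.97 (SE 0.24, adjusted p = 0.0338), and with library totals in place of TMM the call was lost.

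Atp5l, subunit g in the membrane part (chromosome 9, 44912557 to 44920742, minus strand, ENSMUSG00000038717), was at 28.8, 38.9 and 50.6 CPM in vehicle, 45.6, 56.6 and 37.5 at 1 h, 94.2, 79.8 and 96.5 at 6 h, then 21.4, 33.3 and 59.4 at 24 h. Its 6 h libraries did not overlap with any other group. The log2 fold change was 1.19 (SE 0.31, adjusted p = 0.0383). Atp5b, at the highest counts of the nuclear members, measured 208.7, 234.7 and 249.7 CPM in vehicle and 423.9, 468.3 and 490.0 at 6 h, and missed the threshold (log2 fold change 1.00, adjusted p = 0.0564). Its catalytic-head partner Atp5a1 was at 92.7 ± 10.04 CPM and 108.0 ± 18.1 with overlapping libraries (adjusted p = 0.521).

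**Figure D4:**
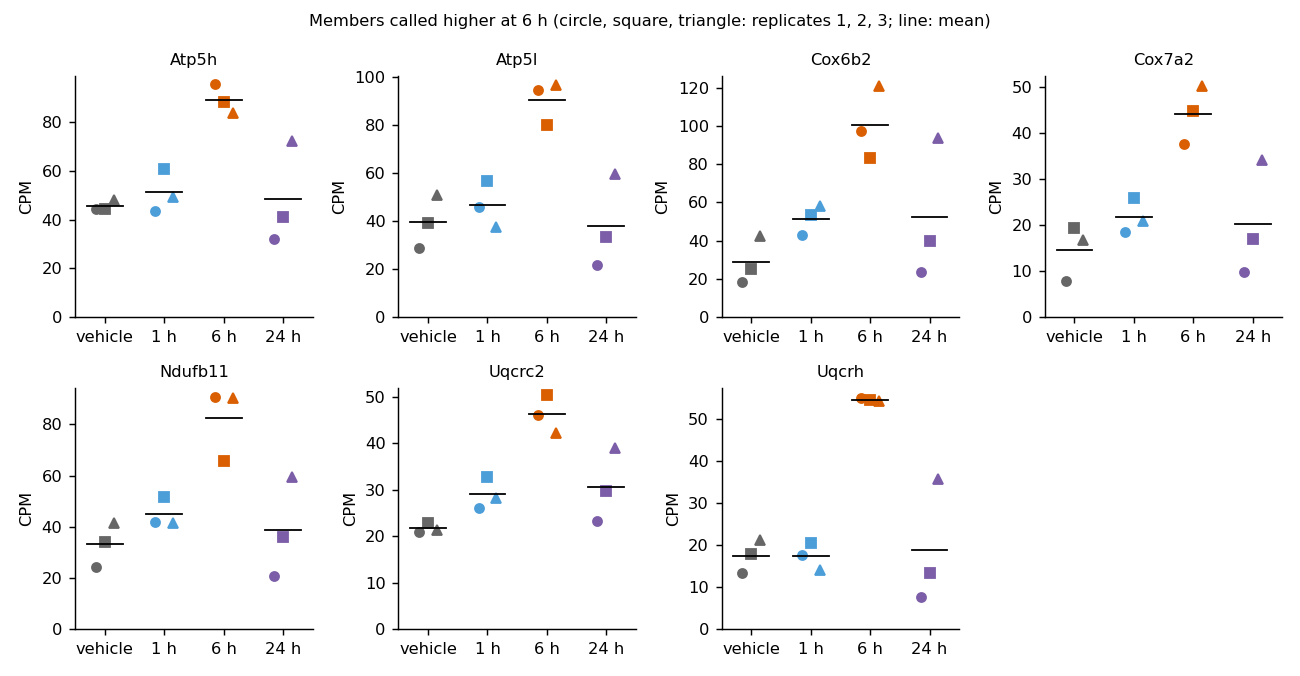
CPM in each library for the 7 nuclear members called higher at 6 h, with the mean of 3 libraries as a line and axes from 0. In every panel the 3 libraries at 6 h lie above the 3 vehicle libraries, and at 24 h replicate 3 is the highest.

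These calls differed in how far they rested on single libraries. Leaving out each of the 12 libraries in turn, Uqcrc2 lost its call in 0 fits, Cox6b2 and Ndufb11 in 4, Cox7a2 and Uqcrh in 6, Atp5h in 8 and Atp5l in 10. The number of nuclear members called higher was 1 without vehicle replicate 1, vehicle replicate 2, 6 h replicate 1 or 6 h replicate 3, and 3 without vehicle replicate 3 or 6 h replicate 2. Without 24 h replicate 1 it was 13, and without 24 h replicate 3 it was 14. In these fits the shared estimate of the spread, the filter and the TMM factors were all redone, and their parts were not tested. With only the groups compared in the fit, 16 nuclear members were called higher. Over all genes 6.31%, 7.04% and 8.74% were called higher in these 3 fits, and 1.51% to 2.32% when a vehicle or 6 h library was left out.

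The promoters of 2 called members are shown because they hold motifs of factors known to act at such genes: nuclear respiratory factor 1 (NRF1) and ETS-family factors such as GABP. Sequences are RefSeq windows upstream of the start site, GRCm38.p6, written on the gene's strand, with motif matches in capitals.
Atp5h, chr11:115419963-115420069, minus strand: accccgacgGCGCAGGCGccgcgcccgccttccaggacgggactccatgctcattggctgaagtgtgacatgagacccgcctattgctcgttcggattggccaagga
Uqcrh, chr4:116075072-116075220, minus strand: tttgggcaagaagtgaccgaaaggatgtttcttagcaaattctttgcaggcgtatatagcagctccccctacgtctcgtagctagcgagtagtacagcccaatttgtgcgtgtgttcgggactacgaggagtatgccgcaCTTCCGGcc
The capitals mark an NRF1 match in Atp5h and an ETS match, on the reverse strand, in Uqcrh. Atp5h holds an ETS match too, and Atp5l an NRF1 match and 2 ETS matches, all outside the stretch read for display.

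Over windows from 250 bases before to 50 after the start, 62 of the 75 tested nuclear members had a sequence. The NRF1 motif (GCGCANGCG, both strands) was in 27.4% of them and in 6.47% of 27025 genes. The ETS motif (CCGGAAG) was in 24.2% and 9.12%, and the YY1 motif (AAGATGGCG), whose first letters can overlap the end of the ETS motif, in 9.68% and 1.49%. The GATA motif (AGATAAG) was in 0 of 62 and in 3.07% of all genes. Among the 6 called members with a window, 2 held NRF1 and 3 held ETS, beside 15 and 12 of the 56 not called. These are matches of letters, not binding sites.

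Of the mitochondrially encoded genes, those of complexes IV and V had the higher fold changes at 6 h. mt-Co1 (mitochondrial chromosome, 5328 to 6872) measured 7949, 9556 and 10260 CPM in vehicle, 10720, 12830 and 10900 at 1 h, 18890, 18160 and 21110 at 6 h, then 6914, 9848 and 17730 at 24 h. Its 6 h libraries were above all others. The log2 fold change at 6 h was 1.07 (SE 0.30, adjusted p = 0.0572), which did not pass. It passed in 8 of 22 alternatives, among them DESeq2 (adjusted p = 0.00265), limma-voom (adjusted p = 0.0406) and library totals (0.61, adjusted p = 0.0348). Over these alternatives the adjusted p ran from 0.000352 to 0.187.

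With their copies, mt-Co2 went from 2466 ± 262.6 CPM in vehicle to 4432 ± 597.8 at 6 h and mt-Co3 from 2305 ± 294.2 to 4199 ± 426.0 (SD, n = 3). Their log2 fold changes were 0.85 (adjusted p = 0.11) and 0.87 (adjusted p = 0.0856). In complex V, mt-Atp6 with its copy went from 1396 ± 149.6 to 2421 ± 406.4 CPM, and mt-Atp8 from 82.4 ± 7.84 to 148.9 ± 11.2. None of these 4 passed.

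The mitochondrial complex I genes had lower fold changes. With copies, log2 fold changes at 6 h were 0.23 for mt-Nd1, 0.10 for mt-Nd2, 0.09 for mt-Nd3, 0.40 for mt-Nd4, -0.01 for mt-Nd4l, 0.14 for mt-Nd5 and 0.12 for mt-Nd6. The direction of their sum depends on the scaling. Without copies the sum was 5806 to 6192 CPM in vehicle and 7150 to 7245 at 6 h. As a share of all counts it was 0.636% to 0.671% in vehicle and 0.551% to 0.580% at 6 h. mt-Nd6, the one member transcribed from the light strand, was at 195.8, 196.6 and 215.4 CPM in vehicle and 222.9, 246.3 and 193.1 at 6 h, which overlap. mt-Cytb, the complex III core subunit, went from 1347 ± 107.5 to 1790 ± 167.0 CPM (log2 fold change 0.41, adjusted p = 0.286). Without strand information, reads of mt-Nd6 and its overlapping neighbour mt-Nd5 cannot be told apart where they overlap. The difference between the complexes was not tested.

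The mitochondrial ribosomal RNAs passed the test. mt-Rnr1, the small-subunit rRNA, was at 15.9, 38.1 and 35.3 CPM in vehicle and 109.0, 102.5 and 88.3 at 6 h (log2 fold change 1.75, SE 0.35, adjusted p = 0.0112). mt-Rnr2, the large-subunit rRNA, was at 76.6, 155.3 and 153.1 CPM and 431.4, 476.0 and 456.9 (log2 fold change 1.83, SE 0.41, adjusted p = 0.0214). Both rose in every 6 h library above every vehicle library. Libraries were depleted of ribosomal RNA, so these rows hold what the depletion left, and its evenness was not tested. mt-Rnr1 lost its call without vehicle replicate 1, and mt-Rnr2 in the 6 fits that left out a vehicle or a 6 h library.

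Lists of genes that work beside the complexes were counted in the same comparison, where 4.06% of all genes were called higher and 0.785% lower. In the citric acid cycle, which feeds electrons to complexes I and II, 2 of 13 genes were called higher and 0 lower, with a median of -0.17. Ogdh, the first component of the 2-oxoglutarate dehydrogenase complex, was at 146.7, 135.8 and 167.5 CPM in vehicle and 392.1, 379.3 and 346.4 at 6 h (log2 fold change 1.31, SE 0.21, adjusted p = 0.00259). Idh3g, a regulatory subunit of isocitrate dehydrogenase, went from 36.2 ± 2.38 to 78.2 ± 7.20 CPM (log2 fold change 1.11, adjusted p = 0.00365). Neither call was lost in any fit run. Atpif1, the inhibitor of ATP hydrolysis by complex V, was the 1 of 17 other carriers and subunits called, from 112.3 ± 27.9 to 342.8 ± 39.9 CPM (log2 fold change 1.61, adjusted p = 0.0382), a call lost in 10 of 12 fits that left out a library.

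Of 75 tested mitochondrial ribosomal proteins 1 was called in each direction, with a median of -0.14. Mrpl15 rose from 6.61 ± 0.453 to 12.5 ± 1.49 CPM (adjusted p = 0.0316), and Mrps25 fell from 24.7 ± 4.14 to 12.8 ± 1.61 (adjusted p = 0.0281). Without 1 library, Mrpl15 lost its call in 7 of 12 fits and Mrps25 in 5. Tbrg4, which acts in mitochondrial RNA processing, was the 1 of 28 genes of mitochondrial DNA upkeep and transcription that was called, falling from 14.6 ± 1.51 to 6.64 ± 2.55 CPM (log2 fold change -1.14, adjusted p = 0.0336, lost in 6 of 12).

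No gene was called at 6 h among 37 tested assembly factors (median -0.02, 4 with an unadjusted p under 0.05), 18 glycolysis genes (median -0.12, 1 under 0.05) or 22 genes of protein import (median -0.01, 5 under 0.05). None of 6 tested nucleotide and phosphate carriers and porins was called (median -0.16, 1 under 0.05), nor of 11 tested regulators of nuclear mitochondrial genes (median -0.17, 1 under 0.05). Nrf1 was at 20.03 ± 1.28 CPM in vehicle and 21.8 ± 5.41 at 6 h, Gabpa at 36.3 ± 5.15 and 27.6 ± 1.02, and Tfam, the mitochondrial transcription factor, at 3.79 ± 2.78 and 2.99 ± 1.83. Polrmt, the mitochondrial RNA polymerase, was at 2.82 ± 1.74 and 5.31 ± 4.20 CPM. Ppargc1a, a coactivator of these pathways, averaged at most 0.114 CPM in any group and was too low to test.

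At 1 h after the last dose no member was called by edgeR, DESeq2 or limma-voom. Over all genes edgeR called 0.179% higher and 0.0149% lower, DESeq2 1.28% and 0.19%, and limma-voom 0.12% and 0.00747%. Of 75 nuclear members 30 had a positive log2 fold change, 2 had an unadjusted p under 0.05, and the median was -0.06 beside -0.02 over all genes. The mt- members had a median of 0.13 on their own rows (8 of 12 positive) and of 0.03 with copies added (7 of 13 positive). None had an unadjusted p under 0.05 either way. Cox6b2 had a log2 fold change of 0.85 and Uqcrc2 of 0.42 at this time.

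At 24 h no member was called by these 3 tools. Over all genes edgeR called 0.105% higher and 0% lower, DESeq2 0.77% and 0.164%, and limma-voom 0.0523% and 0%. The nuclear median was -0.03 (33 of 75 positive, 5 with an unadjusted p under 0.05) and the mt- median 0.07 (8 of 12 positive, 1 under 0.05). With copies added the mt- median was 0.09 (10 of 13 positive, 1 under 0.05). At this time Uqcrh ran from 7.57 to 35.8 CPM and mt-Co1 from 6914 to 17730 CPM. Without 24 h replicate 3 the nuclear median was -0.27. These 3 comparisons share the vehicle libraries.

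The treated groups were also set against each other, without vehicle. From 1 to 6 h, 61 of 75 nuclear members had a positive log2 fold change, with a median of 0.45 beside 0.00 over all genes, and 27 had an unadjusted p under 0.05. None was called in either direction by edgeR, which called 0.134% of all genes higher and 0.359% lower. DESeq2 called 9 nuclear members higher and 1 lower, and limma-voom 1 higher. Over all genes DESeq2 called 5.04% higher and 3.66% lower, and limma-voom 0.202% and 0.291%. All 12 tested nuclear members of complex IV were positive, with a median of 0.70. With library totals the nuclear median was 0.02 and that of all genes -0.43. On the mt- rows alone the median was 0.30 (3 with an unadjusted p under 0.05, none called by any of the 3 tools), and -0.13 with library totals. With copies added the TMM-scaled mt- median was 0.38, with 12 of 13 positive and 6 under 0.05 unadjusted.

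From 6 to 24 h, 60 of 75 nuclear members had a negative log2 fold change, and the median was -0.44 beside 0.04 over all genes. No member was called by edgeR in either direction, while 0.508% of all genes were called higher and 1.25% lower. Unadjusted p was under 0.05 for 28 nuclear and 4 mt- members, and DESeq2 called 11 nuclear and 2 mt- members lower, limma-voom 9 and 1. Over all genes DESeq2 called 8.27% lower and 4.23% higher, and limma-voom 4.5% and 0.949%. With copies added the mt- median was -0.30, and 6 of 13 mt- members had an unadjusted p under 0.05. The smallest adjusted p values were 0.052 for Ndufs4, a complex I accessory subunit (log2 fold change -1.50), and 0.052 for Atp5l (-1.25). Of the 18 reticulocyte markers, 5 were called lower in the same comparison, with a median of -1.09, and their part in the members' values was not tested. Sp1, a general activator of GC-rich promoters, was the called regulator, from 136.4 ± 10.4 CPM at 6 h to 237.6 ± 46.5 at 24 h (adjusted p = 0.0324, lost in 9 of 12 fits that left out a library). Without 24 h replicate 3, 22 nuclear members were called lower, 1 was called higher and 3 mt- members were called lower, while 10.2% of all genes were called lower and 5.76% higher. With library totals the nuclear median was 0.05, the mt- median 0.19 and that of all genes 0.56.

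The size of the 6 h difference varied with transcript length among the nuclear members. The 37 members whose longest coding transcript has at most 913 bases had a median log2 fold change of 0.50, with 32 positive. For the 37 longer ones, which include all 7 nuclear core subunits of complex I, the median was 0.11, with 23 positive. Spearman's rho between log2 fold change and length over these 74 members, which share all libraries, was -0.41, and over 11285 coding genes tested it was -0.06. All 437 coding genes of at most 913 bases had a median of 0.16, with 60.6% positive, and longer genes one of -0.02, with 48.2% positive.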

How the data were processed

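The authors deposited a table of whole-number counts for 12 whole-blood libraries and 55367 genes with mouse Ensembl identifiers, not scaled to depth. Per the labels' protocols, RNA was extracted with a PAXgene kit and sequenced paired-end after ribosomal RNA depletion. Per the submitters' processing notes, RSEM was used, with no version, and the build listed is hg38 although the gene identifiers are mouse. The sources used here do not name the aligner, the annotation release or the strand setting, and the deposited counts may be rounded estimates.

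Members, lists and tests were chosen with earlier results of these data known. Genes kept by filterByExpr (13384) were fitted in edgeR 4.0.16 (R 4.3.3) with TMM factors, 4 group means over 12 libraries and the quasi-likelihood test, with Benjamini-Hochberg adjustment over all genes and a threshold of 0.05. The code was tested on simulated data. Every adjusted p is from this model unless DESeq2 1.42.0 or limma 3.58.1 (voom) is named. CPM are on TMM-scaled sizes, and SE is of the log2 fold change. An exact permutation test of 3 against 3 libraries cannot give a two-sided p under 0.1, so none was used. Positions and the longest coding transcript came from GENCODE M21 (55111 identifiers matched). Copies were found by shared 31-base words, near-identical meaning at least 95% of a member's words. The pseudogene-named rows left out by the rule numbered 13. Named members were all mt- and Sdh genes, called members, the 2 highest per complex and among those not called, and isoform families, with up to 4 called genes per pathway list and Ppargc1a, Nrf1, Gabpa, Tfam and Polrmt always. Ndufs4 and the summaries by transcript length and by core and other Nduf genes were added after their values were seen. Alternatives were DESeq2 size factors, library totals, no haemoglobin genes, no mt- genes, no filter, 5 CPM in 3 libraries, DESeq2, limma-voom, the replicate block, only the groups compared, each library left out, and the copies added to members (chosen after seeing the data).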

Additional observations from a re-analysis of the deposited data

Results flagged for a closer look

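Counts stood on rows that the choice of members does not take. The near-identical copies on chromosome 1 held 284350 counts for Gm28661 (copy of mt-Co2), 256926 for Gm28437 (mt-Co3), 131118 for Gm10925 (mt-Atp6) and 8273 for Gm28438 (mt-Nd3) over the 12 libraries. Each is above the 3 counts that a row at 0 allows. The rows of mt-Co2, mt-Co3, mt-Atp6 and mt-Nd3 held 6188, 20237, 26882 and 94. Among the 13 names with -ps that were left out, Ndufb1-ps held 326 counts, with 18 to 43 in 11 libraries and 11 in the other one.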

How the results depend on the processing

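The cause of each shift was not tested. At 6 h against vehicle, 7 nuclear members were called higher; the count was 14 with no filter (3.74% of all genes), 11 with at least 5 CPM in 3 libraries (5.81%), 13 with DESeq2 (6.57%), 11 with limma-voom (4.39%), 16 with only the groups compared (8.74%) and 6 with library totals (2.57%). With library totals 2 nuclear members were called lower, beside 11.1% of all genes, and with no filter 1, beside 1.15%. Of mt- members, 1 was called higher with library totals, 4 with no filter, 1 with DESeq2, 1 with limma-voom, 3 with only the groups compared and 1 with the replicate block, and 1 lower with library totals. With no filter, 1 nuclear and 1 mt- member were called higher at 1 h, and 1 nuclear member higher and 1 mt- member lower at 24 h, where 0.897% of all genes were called higher at 1 h, and 0.638% higher and 0.278% lower at 24 h.

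At 6 h against 1 h, nuclear members called higher numbered 1 with library totals (0.127% of all genes), 14 with no filter (3.13%), 9 with DESeq2 (5.04%), 1 with limma-voom (0.202%) and 18 with only the groups compared (8.73%), and 1 was called lower with library totals, no filter, DESeq2 and only the groups compared, beside 4.91%, 1.62%, 3.66% and 5.07% of all genes. Of mt- members, 3 were called higher with no filter, 3 with only the groups compared, and 1 lower with no filter. At 24 h against 6 h, nuclear members called lower numbered 3 with library totals (1.94% of all genes), 14 with no filter (3.72%), 3 with 5 CPM (3.03%), 11 with DESeq2 (8.27%), 9 with limma-voom (4.5%) and 6 with the replicate block (2.43%), and 6 were called higher with library totals (20.1%). Of mt- members, 3 were called higher with library totals, and 4 lower with no filter, 2 with DESeq2 and 1 with limma-voom.

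With library totals the nuclear median was -0.11 at 6 h against vehicle, 0.016 at 6 h against 1 h and 0.054 at 24 h against 6 h, and the mt- median -0.13 and 0.19 in the last pair of comparisons. With copies added, mt- members took 2.47% of counts in vehicle, 2.71% at 1 h, 3.12% at 6 h and 2.80% at 24 h.

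Leaving out each library in turn gave 1 to 14 nuclear members called higher and 0 to 1 lower at 6 h against vehicle, with medians from 0.18 (without 6 h replicate 3) to 0.37, and 0 to 2 mt- members higher. Over all genes these fits called 1.51% to 7.04% higher and 0.174% to 2.32% lower. At 24 h against vehicle it gave 0 to 1 nuclear and 0 to 1 mt- members lower, with nuclear medians from -0.27 to 0.059. Of all genes, 0% to 0.539% were called lower there. At 6 h against 1 h it gave 0 to 16 nuclear members higher and 0 to 1 lower, and 0 to 2 mt- members higher. Of all genes, 0% to 6.47% were called higher and 0.0289% to 3.03% lower in these fits. At 24 h against 6 h it gave 0 to 1 nuclear members higher, 0 to 22 lower, and 0 to 3 mt- members lower. Of all genes, 0% to 5.76% were called higher and 0% to 10.2% lower.

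Whether replicate numbers pair the libraries cannot be decided from so few weak correlations. Above 0.1 were 2 of 18 same-number pairs (r from -0.111 to 0.168) and 6 of 36 other pairs (r from -0.182 to 0.179). Of 12 libraries, 6 correlated best with their own number. The replicate block gave 10 nuclear members called higher at 6 h against vehicle, beside 4.07% of all genes. Of all values of called counts, medians and shares under alternatives, 647 were counted as the same and 72 as moved. A median near 0 could change sign and still be counted as the same. The mt- median at 24 h against vehicle, 0.073, ran from -0.092 to 0.285 when libraries were left out, and none of these counted as moved. Of values of single genes, 5110 kept their side of the threshold, 254 passed it only in the alternative and 86 lost it. Arms left with 2 libraries share the spread of the other groups.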
